A study of Mus musculus with 6 samples.

Results

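Potassium channels and hyperpolarization-activated cyclic nucleotide-gated (HCN) channels were examined through 40 genes that encode their subunits, 34 for pore-forming subunits and 6 for auxiliary subunits, in 12 subfamilies. The genes were taken by gene symbol, as members of these channel families and with earlier results of these data known, from the 19938 genes that the annotation of the array names, and each was read from its brightest probe set, by the mean over 6 arrays, among probe sets with a single symbol. The cells were differentiated from a 129SVEV mouse embryonic stem cell (ESC) line in which an IRES-GFP reporter was knocked in behind the coding sequence of Ctip2 (Bcl11b), a transcription factor gene of deep-layer cortical neurons and of ventral forebrain neurons, with the Neo selection cassette left in place. Floating aggregates were grown by the SFEBq method, with SB-431542 (an inhibitor of the TGF-β receptor) and WNT-C59 (an inhibitor of WNT signaling) in the early medium, and were sorted into CTIP2:GFP+ and CTIP2:GFP- cells on day 11, day 12 and day 13. Both fractions carry the knock-in and had the same treatment, and whether the line is a single clone is not given in the sources used here. Each fraction of each day was hybridised to 1 GeneChip Mouse Gene 1.0 ST array, so the 3 arrays of a fraction are successive days, not repeats of a culture.

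Potassium channels set the resting potential of a cell and end its action potentials, and the subfamilies differ in what opens them. Voltage-gated (Kv) channels open on depolarization, calcium-activated channels open on a rise of calcium in the cell, inward rectifiers and K2P leak channels conduct near the resting potential, and HCN channels open on hyperpolarization and carry a depolarizing current. In the developing forebrain, neurons acquire Kv and leak currents as they leave the cell cycle and differentiate, whereas glial cells are known for inward rectifier currents.

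Values are log2 signals by robust multiarray averaging (RMA), and a difference is GFP+ minus GFP- on the same day on that scale, so that 1 stands for 2-fold. The mean of the 3 daily differences was tested in limma by a fit that also held a term for each day. Its p was adjusted by Benjamini-Hochberg over the 19938 genes, with a threshold of 0.05. Such a p rests on how much the difference of a gene varied from day to day, drawn by eBayes toward a variance shared by all genes. It does not measure variation between repeats of a culture. For Kcnq5, with daily differences of -0.06, -0.02 and -0.03, the standard error was still 0.13. Levels of different genes cannot be set against each other on these arrays, because each probe set has its own response. In RNA of sorted populations, fewer cells of a type and less RNA per cell cannot be told apart.

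Bcl11b, the gene that drives the reporter, had signals of 8.76, 7.91 and 8.54 in GFP+ cells of day 11, day 12 and day 13 and of 6.44, 6.27 and 6.88 in GFP- cells. It was higher in GFP+ cells by 1.87 (standard error 0.19, adjusted p = 0.025), a call that was lost after a further quantile normalization (adjusted p = 0.071). The call was also lost without day 13 (0.056), with arrays centred on their medians (0.0999) and with the methods' t-test after Benjamini-Hochberg adjustment (0.296). In these last settings 0 of all 19938 genes were called, so the losses there say nothing of Bcl11b. Of 8 markers of GABAergic neurons, 5 were higher past the test and none of the 8 overlapped between the fractions, with a mean list signal of 7.71 to 9.05 in GFP+ and 6.03 to 6.66 in GFP- cells. Of 8 markers of cortical projection neurons only Bcl11b passed, the gene by whose reporter the cells were sorted. The mean list signal, with Bcl11b included, was 6.02 to 6.77 in GFP+ and 5.86 to 6.03 in GFP- cells. Mean differences of the other markers in this list ran from -0.31 (Fezf2) to 0.81 (Slc17a6). Of 8 general neuronal markers 2 (Map2 and Syt1) were higher past the test, and of 8 markers of neural progenitors and radial glia 5 (Nes, Hes5, Vim, Slc1a3 and Notch1) were lower past it, with mean list signals of 7.64 to 8.08 in GFP+ and 8.89 to 9.38 in GFP- cells. Of the markers analysed here of telencephalon (3), oligodendrocyte lineage (4), mesenchyme and vessel (7), microglia and blood (4), surface epithelium (4) and pluripotent cells (3), 0 passed, while Pdgfra was higher and Pax6, Pdgfrb and Pecam1 were lower at an unadjusted p under 0.05 from limma. The labels call the cells cortical progenitors. Slc17a7, the vesicular glutamate transporter gene of mature cortical projection neurons, stayed between 5.17 and 5.49 on all arrays, and a gene of mature neurons does not test that label. In the same list Slc17a6 and Tbr1 reached 7.40 and 6.79 in GFP+ cells of day 12. The fractions thus differed in neuronal and progenitor markers, and the part of these markers in the channel values was not tested. The day 13 GFP- array stood apart, with a standard deviation over probe sets of 1.11 against 1.29 and 1.48 on the other GFP- arrays. Several of the values that day 13 moved are given without that day as well.

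None of the 40 channel genes passed the test in either direction. Over all genes, 0.797% were higher past it and 0.567% were lower past it. The methods' t-test with Benjamini-Hochberg adjustment called 0 of all 19938 genes, so its count of 0 members carries no information on them. The lowest adjusted p of a member was 0.059, for the auxiliary subunit gene Kcnip1. At an unadjusted p under 0.05 from limma, 8 members (20%) were higher in GFP+ cells (Kcnd2, Kcnq3, Kcnh7, Kcnk9, Kcnma1, Kcnip1, Hcn3 and Hcn4), beside 9.58% of all genes. At the same threshold, 3 members (7.5%) were lower (Kcnh1, Kcnj10 and Kcnn3), beside 5.96% of all genes. The share of lower members was thus near that of all genes, and the share of higher members was above it by description, with no test of the list. The members were chosen with earlier results of these data known, so that share cannot be read as a trait of the channel families. Of the 51 other potassium and HCN channel genes analysed here, 3 were higher and 0 were lower at the same threshold.

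In 10 members (25%), namely those 8 with Kcnh5 and Kcnn2, the lowest GFP+ array lay above the highest GFP- array, which held for 9.05% of all genes. In 3 members, again Kcnh1, Kcnj10 and Kcnn3, the GFP+ arrays lay below all GFP- arrays, which held for 7.85% of all genes. Without day 13 the first of these counts was 18 and the second was 4, against 15.8% and 16.1% of all genes, and 10 of the 11 genes at an unadjusted p under 0.05 kept it. Of the 51 other potassium and HCN channel genes, 4 had all GFP+ arrays above all GFP- arrays and 1 had them below, with all days used. The difference had the same sign on all 3 days in 18 members: 12 were higher, beside 16.9% of all genes, and 6 were lower, beside 21.4%. A mean difference over 2-fold was seen for Kcnk9 and Kcnip1 among the higher members, beside 1.97% of all genes, and for 0 lower members, beside 1.02%.

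**Figure D1:**
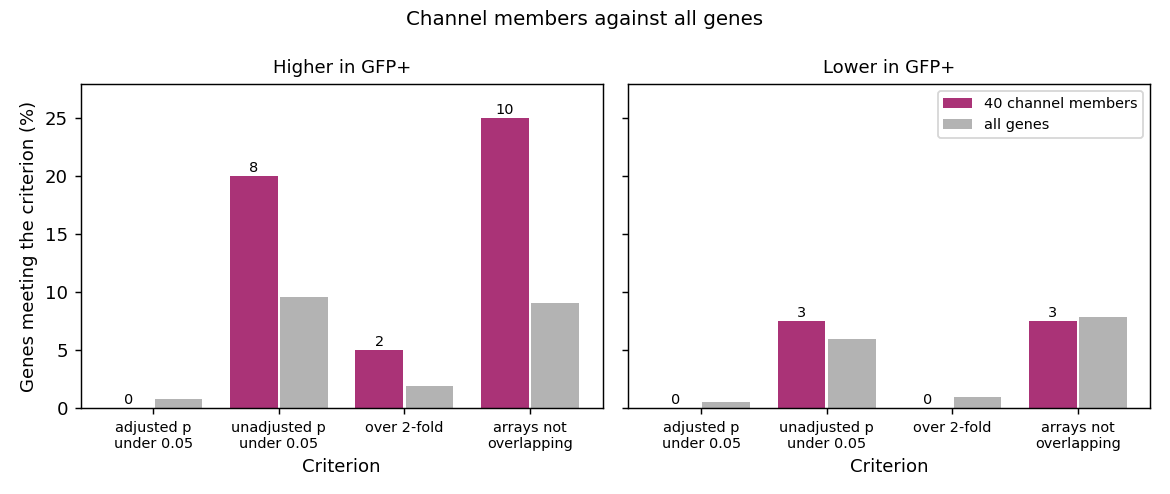
Share of genes (%) that met each of 4 criteria among the 40 channel members (dark bars, with the number of members above each) and among all 19938 genes (grey bars), for genes higher (left) and lower (right) in GFP+ cells. The share of members was 20% against 9.58% for a higher value at an unadjusted p under 0.05 and 7.5% against 5.96% for a lower one, and 0 members passed the adjusted threshold. The members were chosen with earlier results of these data known.

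The median difference of the 40 members was 0.02, beside -0.05 over all genes. On day 11, day 12 and day 13 the median of the members was 0.09, 0.16 and -0.05, and 24, 28 and 18 of the 40 were above 0, beside 48.4%, 48.7% and 44.0% of all genes. For 24 members the mean difference was between -0.28 and 0.22 with adjusted p-values of 0.544 to 0.998, while the standard errors of the 40 members ran from 0.13 to 0.47. Of the 40 members, 25 had a mean signal over 5.43, the median over all probe sets, and 1 was under the 20th percentile (4.67).

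**Figure D2:**
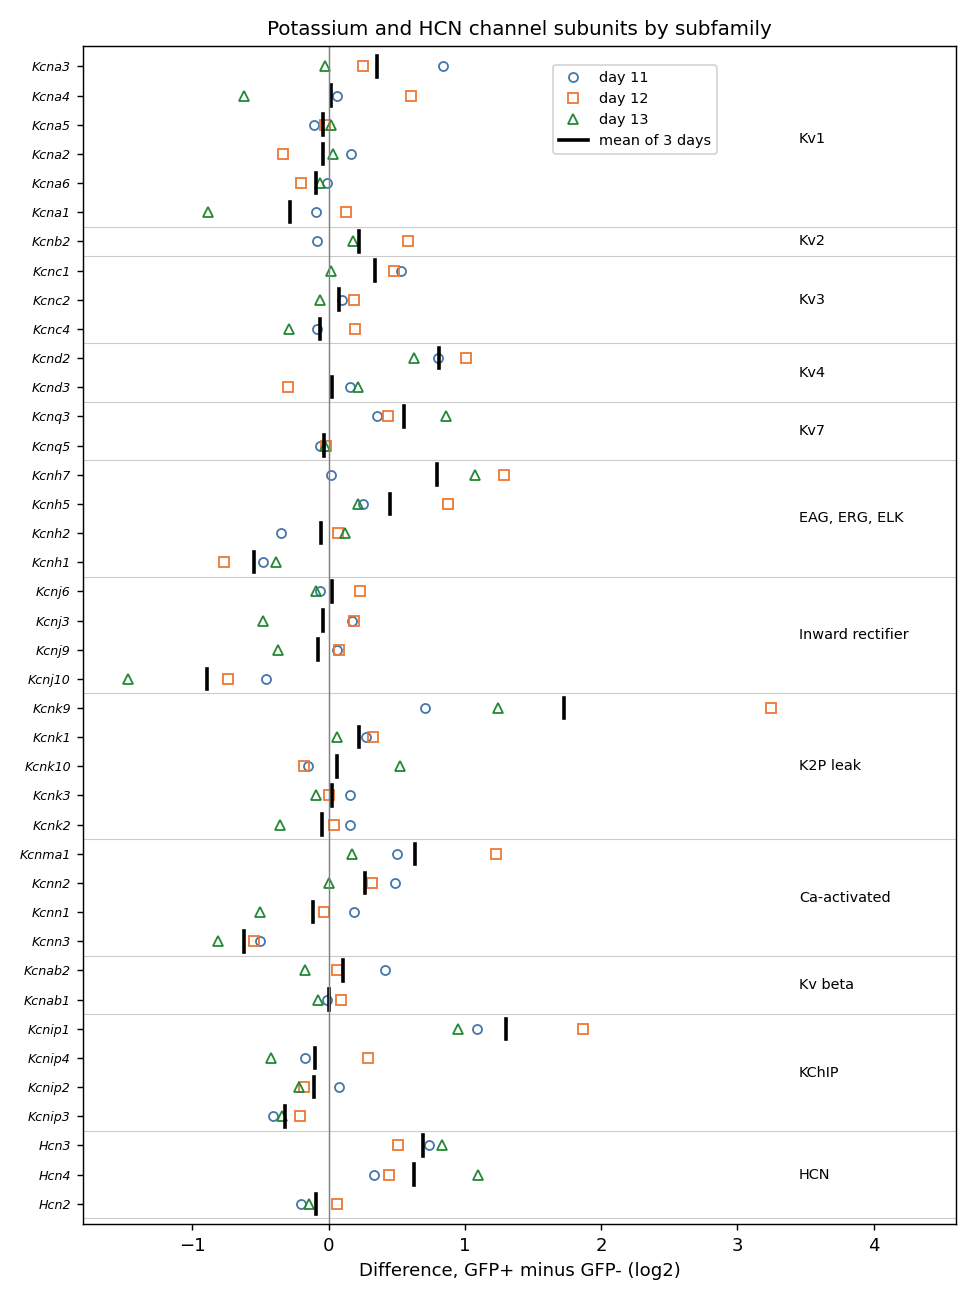
Difference between GFP+ and GFP- cells (log2, horizontal axis) for the 40 channel genes by subfamily, with a circle for day 11, a square for day 12, a triangle for day 13 and a bar for their mean. Kcnk9 on day 12 (3.24) lies farthest to the right and Kcnj10 on day 13 (-1.48) farthest to the left.

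Among the channel genes that stood higher in GFP+ cells were a pore subunit and an auxiliary subunit of the same channel. Kv4 pores carry the A-type current, a fast transient potassium current that delays firing, and KChIP proteins are calcium-binding subunits that bind the N terminus of Kv4 pores and bring them to the cell surface. The region around the start of each gene is printed for Kcnip1 and Kcnd2, the genes of these partners, and for Kcnj10, the member with the most negative mean difference. The sequences are from RefSeq (GRCm38.p6), each of 300 bases, written 5′ to 3′ on the strand of the gene. Capitals mark E-boxes CAGCTG and CAGATG, the class of site that proneural bHLH factors bind, and the GC box GGGCGG, on either strand, with no overlap among the matches shown. For Kcnip1, RefSeq lists 3 starts, and the probe set does not tell them apart.
Kcnip1, chr11:33993144-33993443, minus strand: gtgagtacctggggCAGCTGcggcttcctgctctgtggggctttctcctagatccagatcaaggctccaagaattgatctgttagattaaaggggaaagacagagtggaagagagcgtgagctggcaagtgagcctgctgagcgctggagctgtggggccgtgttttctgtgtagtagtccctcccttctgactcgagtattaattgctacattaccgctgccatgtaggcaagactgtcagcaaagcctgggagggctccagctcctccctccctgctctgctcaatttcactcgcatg
Kcnip1, chr11:33843637-33843936, minus strand: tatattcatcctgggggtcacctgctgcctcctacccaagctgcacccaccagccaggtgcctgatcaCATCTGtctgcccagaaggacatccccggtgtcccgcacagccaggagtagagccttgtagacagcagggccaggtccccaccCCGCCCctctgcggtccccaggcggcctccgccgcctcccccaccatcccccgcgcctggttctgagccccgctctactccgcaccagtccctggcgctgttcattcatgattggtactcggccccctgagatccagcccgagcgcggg
Kcnip1, chr11:33680633-33680932, minus strand: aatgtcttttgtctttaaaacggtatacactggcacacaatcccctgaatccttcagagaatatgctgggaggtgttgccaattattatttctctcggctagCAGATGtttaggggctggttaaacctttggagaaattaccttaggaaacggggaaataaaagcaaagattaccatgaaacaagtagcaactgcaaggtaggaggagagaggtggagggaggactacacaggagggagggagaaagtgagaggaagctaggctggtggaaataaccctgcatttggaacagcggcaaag
Kcnd2, chr6:21215096-21215395, plus strand: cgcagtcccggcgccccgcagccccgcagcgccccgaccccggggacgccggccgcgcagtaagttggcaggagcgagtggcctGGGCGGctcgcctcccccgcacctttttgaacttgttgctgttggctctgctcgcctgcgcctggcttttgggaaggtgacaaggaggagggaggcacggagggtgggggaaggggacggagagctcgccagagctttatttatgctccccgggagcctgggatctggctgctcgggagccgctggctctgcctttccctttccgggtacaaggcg
Kcnj10, chr1:172340960-172341259, plus strand: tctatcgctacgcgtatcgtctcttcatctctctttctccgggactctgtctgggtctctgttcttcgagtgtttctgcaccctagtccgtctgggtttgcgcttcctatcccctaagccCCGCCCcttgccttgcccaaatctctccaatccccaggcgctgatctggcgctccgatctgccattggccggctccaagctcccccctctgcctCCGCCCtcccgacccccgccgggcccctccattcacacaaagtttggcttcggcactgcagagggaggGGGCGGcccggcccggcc

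The 3 Kcnip1 windows hold different letters of these motifs: a CAGCTG at the first, a CAGATG and a GC box at the second, and a CAGATG alone at the third. The Kcnd2 window has 1 GC box and the Kcnj10 window has 3, and neither has an E-box of the 2 kinds searched. Windows were given for 33 of the 40 members, 52 in all. CAGCTG was in 14 of the 52, CAGATG in 9 and the GC box in 26, beside 16.3%, 17.2% and 35.7% of 32851 windows of the same length over all genes. A match is a description of the letters and not a bound site.

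Kcnip1, which encodes KChIP1, had signals of 6.43, 7.48 and 6.11 in GFP+ cells of day 11, day 12 and day 13 and of 5.34, 5.62 and 5.16 in GFP- cells. All GFP+ arrays were above all GFP- arrays, and the day 12 array was the highest of each fraction. The daily differences were 1.09, 1.87 and 0.95, with a mean of 1.30 (2.46-fold, standard error 0.21), and the gene did not pass the test (adjusted p = 0.059). Over the alternatives its difference was 1.02 to 1.48 and its adjusted p ran from 5.5e-05 to 0.528. Kcnip3, which encodes KChIP3, a calcium-binding protein also known as the transcriptional repressor DREAM, had the opposite order on each day. Its signals were 7.36, 7.75 and 8.25 in GFP+ cells and 7.77, 7.96 and 8.59 in GFP- cells, with a mean difference of -0.32 (standard error 0.14, adjusted p = 0.347). Within each day the GFP- value was above the GFP+ value, both fractions had their highest value on day 13, and the fractions overlapped. For Kcnip2 and Kcnip4, the other KChIP genes, the daily differences changed sign between days, and Kcnip4 had 5.63 in GFP+ cells of day 12 against 4.81 on day 11 and 4.76 on day 13.

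Kcnd2 had signals of 6.60, 6.79 and 6.85 in GFP+ cells and of 5.79, 5.78 and 6.22 in GFP- cells of day 11, day 12 and day 13. The GFP+ arrays were above all GFP- arrays, the daily differences of 0.80, 1.004 and 0.63 had a mean of 0.81 (1.75-fold, standard error 0.15), and the adjusted p was 0.069. Its difference ran from 0.68 to 0.95 over the alternatives. Kcnd3, the other Kv4 pore gene among the members, showed no such separation, with signals of 7.41 to 7.83 in GFP+ cells and 7.39 to 7.71 in GFP- cells.

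The K2P subfamily encodes leak channels that are open at rest and hold the membrane potential near the potassium equilibrium. Kcnk9, an acid-sensitive leak channel gene that is imprinted and expressed from the maternal allele in brain, had the largest mean difference of the 40 members. Its signals were 6.29, 9.32 and 6.99 in GFP+ cells of day 11, day 12 and day 13 and 5.58, 6.08 and 5.75 in GFP- cells. Every GFP+ array was above every GFP- array, but the day 12 GFP+ array stood 2.33 above the next one. The daily differences were 0.70, 3.24 and 1.24, the fold on day 12 was 9.48, and the mean was 1.73 (3.32-fold, standard error 0.47, adjusted p = 0.158). The size of this difference rested on day 12: it was 0.97 without day 12 and 2.24 without day 11.

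The other 4 K2P genes did not share this pattern. Kcnk3, a close relative of Kcnk9 that forms mixed channels with it, had signals of 5.88 to 6.22 in GFP+ cells and 5.87 to 6.25 in GFP- cells, with daily differences of 0.16, 0.00 and -0.09. Kcnk1, Kcnk2 and Kcnk10, the last of which encodes a mechanosensitive and lipid-sensitive channel like that of Kcnk2, had daily differences from -0.36 to 0.52. Kcnk1 alone of these was higher on each day (0.27, 0.33 and 0.06), with an adjusted p of 0.544.

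The day 12 GFP+ array was the highest of the 3 GFP+ arrays for 20 of 40 members, beside 31.3% of all genes. In 6 members (Kcnk9, Kcnip1, Kcnip4, Kcnma1, Kcnh5 and Kcna4) it stood more than 0.5 above the next GFP+ array, by 2.33, 1.05, 0.81, 0.79, 0.60 and 0.51. The share of all genes with such a margin was not counted, so these 6 cannot be read as particular to the members. Markers of neuron types and of radial glia moved on the same array. All 8 GABAergic markers had their lowest GFP+ value on day 12, with a mean list signal of 9.05, 7.71 and 8.88 on day 11, day 12 and day 13. For 6 of 8 cortical projection neuron markers day 12 was the highest GFP+ value, with mean list signals of 6.02, 6.77 and 6.42. Slc17a6, a vesicular glutamate transporter gene, had 5.36, 7.40 and 5.41 in GFP+ cells, and Tbr1, a transcription factor gene of early-born cortical neurons, had 4.96, 6.79 and 5.84. The markers of neural progenitors and radial glia had mean list signals of 7.64, 8.08 and 7.75 in GFP+ cells, but they did not move together. Of these 8, 4 were highest and 3 (Sox2, Hes1 and Hes5) were lowest on day 12. Slc1a3, a glutamate transporter gene of radial glia, had 5.88, 7.66 and 6.37, whereas Sox2 had 8.49, 7.73 and 8.48. The part of these cell types in the day 12 values of the channel genes was not tested.

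**Figure D3:**
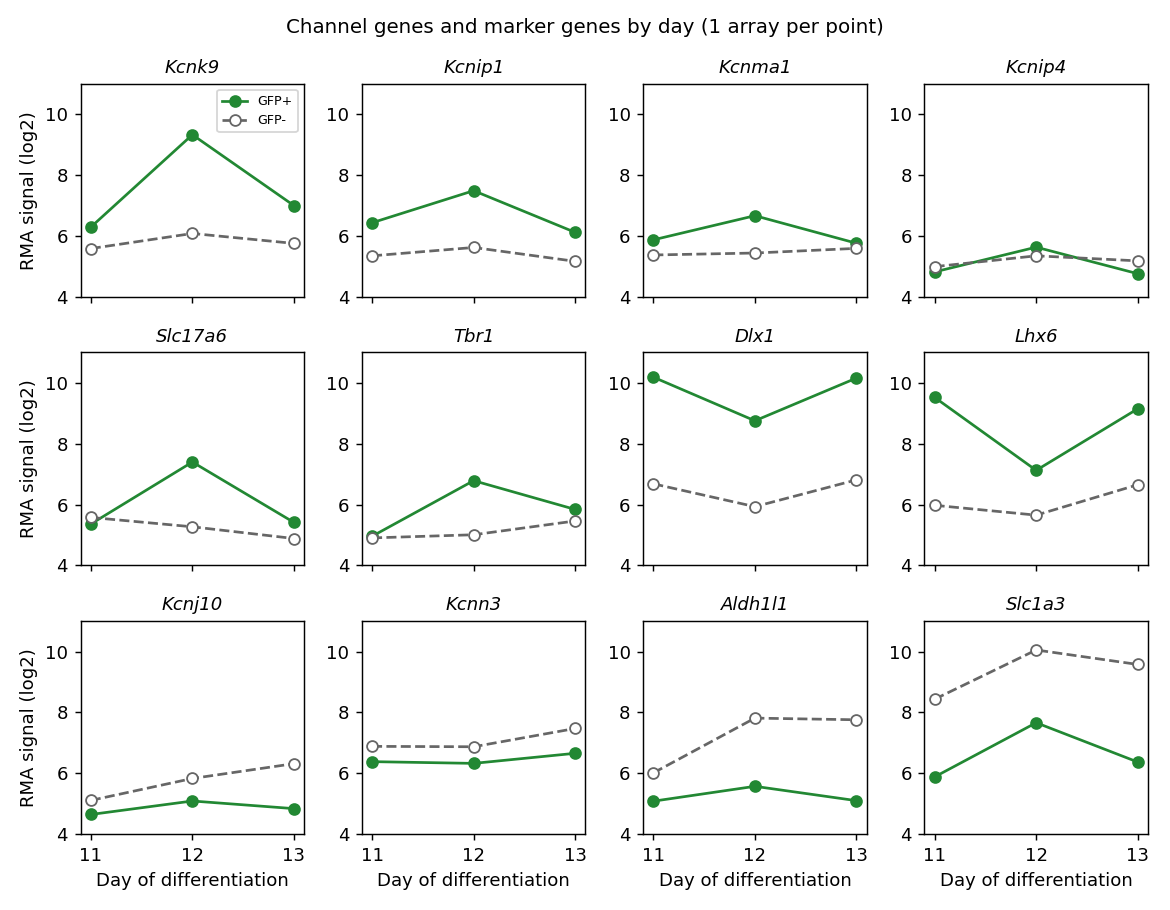
RMA signal (log2, vertical axis) of 4 channel genes in the top row, of 4 neuronal markers in the middle row, and of Kcnj10, Kcnn3 and 2 genes of radial glia and astrocytes in the bottom row, by day of differentiation (horizontal axis), with 1 array per point, filled and solid for GFP+ and open and dashed for GFP- cells. Kcnk9, Kcnip1, Kcnma1, Kcnip4, Slc17a6 and Tbr1 peak in GFP+ cells on day 12, where Dlx1 and Lhx6 dip, and Kcnj10 climbs in GFP- cells from 5.11 to 6.32.

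HCN channels carry the hyperpolarization-activated current, which brings the membrane back toward threshold and supports rhythmic firing. Hcn3 had signals of 6.68, 6.56 and 6.74 in GFP+ cells and of 5.94, 6.05 and 5.91 in GFP- cells of day 11, day 12 and day 13. The fractions did not overlap and each was narrow, and the daily differences of 0.74, 0.51 and 0.83 gave a mean of 0.69 (1.62-fold, standard error 0.14, adjusted p = 0.092). Hcn4, the main pacemaker subunit of the heart, which is also made in the brain, had 7.71, 7.79 and 7.61 in GFP+ cells and 7.38, 7.35 and 6.51 in GFP- cells. Its fractions did not overlap either, and the mean difference of 0.62 (standard error 0.19, adjusted p = 0.201) drew most on day 13, where the difference was 1.10 against 0.33 and 0.44 on the other days, and was 0.39 without day 13. Hcn2, by contrast, had daily differences of -0.20, 0.06 and -0.15, with fractions that overlapped.

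Kv7 channels carry the M-current, a slow potassium current that muscarinic receptors suppress. Kcnq3 had signals of 6.28, 6.50 and 6.41 in GFP+ cells and of 5.92, 6.07 and 5.55 in GFP- cells. The fractions did not overlap, with daily differences of 0.35, 0.44 and 0.86 and a mean of 0.55 (standard error 0.16, adjusted p = 0.182), which was 0.39 without day 13. Kcnq5, which can join Kcnq3 in mixed channels, was nearly equal between the fractions on each day, with differences of -0.06, -0.02 and -0.03.

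Of the 4 ether-à-go-go channel genes among the members 0 passed the test, and their mean differences ran from -0.55 to 0.79. Kcnh8, a gene of this family outside the members, passed it and is given below. Kcnh7, which encodes a channel of the ERG type, had signals of 5.93, 6.50 and 6.03 in GFP+ cells and of 5.91, 5.21 and 4.96 in GFP- cells. Its fractions were equal on day 11 and apart later, with daily differences of 0.02, 1.29 and 1.07 and a mean of 0.79 (1.73-fold, standard error 0.27, adjusted p = 0.236). Kcnh5, an EAG channel gene, had 5.26, 6.04 and 5.44 in GFP+ cells and 5.005, 5.17 and 5.23 in GFP- cells, with a mean difference of 0.45 (standard error 0.18, adjusted p = 0.326). The lowest GFP+ array of Kcnh5 was only just above the highest GFP- array, and the daily difference was 0.88 on day 12 against 0.25 and 0.22, with a mean of 0.23 without day 12. Kcnh1, the other EAG gene and one whose product is also known from dividing cells, ran the other way. It had 5.33, 5.33 and 5.37 in GFP+ cells and 5.82, 6.09 and 5.76 in GFP- cells, with a mean difference of -0.55 (1.46-fold lower, standard error 0.15, adjusted p = 0.157). Kcnh2, an ERG gene known for the cardiac repolarizing current, overlapped between the fractions and had differences of -0.35, 0.07 and 0.12.

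**Figure D4:**
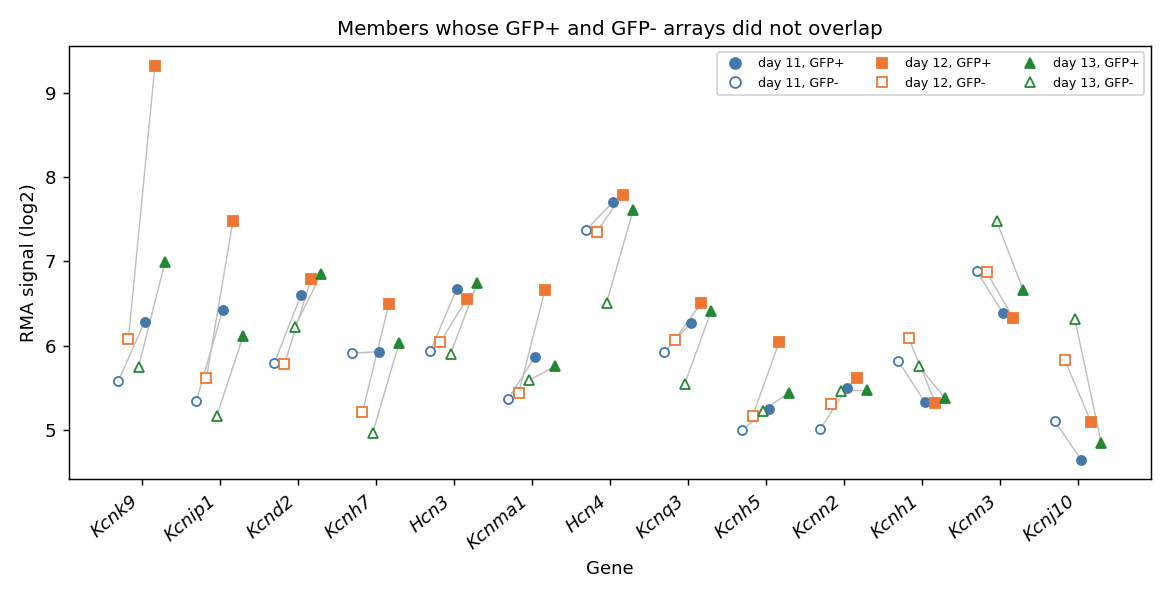
RMA signal (log2, vertical axis) of the 13 channel genes whose fractions did not overlap, with filled symbols for GFP+ and open symbols for GFP- arrays, a shape for each day and a grey line between the arrays of the same day. In the first 10 genes each filled symbol is above every open symbol, and in Kcnh1, Kcnn3 and Kcnj10 each filled symbol is below every open symbol.

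Calcium-activated channels couple calcium entry to repolarization. Kcnma1, the pore gene of the large-conductance (BK) channel, had signals of 5.87, 6.66 and 5.76 in GFP+ cells and of 5.37, 5.44 and 5.59 in GFP- cells. Its fractions did not overlap, and the mean difference was 0.63 (standard error 0.23, adjusted p = 0.264), with 1.23 on day 12 against 0.50 and 0.17 and a mean of 0.33 without day 12. The other probe set of Kcnma1, with a lower signal, gave daily differences of -0.14, 0.02 and -0.69, so the probe sets of the gene disagreed, and their mean gave a difference of 0.18. None of the 3 small-conductance (SK) genes passed the test. Kcnn3 had 6.38, 6.33 and 6.66 in GFP+ cells and 6.89, 6.87 and 7.47 in GFP- cells, was lower in GFP+ cells by value on each day (-0.50, -0.55 and -0.82), and had a mean difference of -0.62 (1.54-fold lower, standard error 0.14, adjusted p = 0.113). Kcnn2 had 5.50, 5.62 and 5.47 in GFP+ cells and 5.02, 5.31 and 5.47 in GFP- cells, with a mean difference of 0.27 (standard error 0.16, adjusted p = 0.506) that was 0.40 without day 13. Its fractions met at 5.47 on day 13, so the lack of overlap has no margin there. Kcnn1 overlapped between the fractions, and its GFP- value was highest on day 13 (6.95).

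Among the 4 inward rectifier genes of the members only Kcnj10 separated the fractions. Outside the members, Kcnj11 lay higher and Kcnj5 lower in GFP+ cells with no overlap, by mean differences of 0.30 and -0.10 (adjusted p = 0.406 and 0.752 from limma). Kcnj10 encodes the channel through which astrocytes and other glial cells take up potassium. The signals of Kcnj10 were 4.65, 5.09 and 4.84 in GFP+ cells and 5.11, 5.83 and 6.32 in GFP- cells of day 11, day 12 and day 13. The GFP+ arrays lay below all GFP- arrays, but only just, with 5.09 in GFP+ cells of day 12 against 5.11 in GFP- cells of day 11. The GFP- value was higher on each later day. The daily differences were -0.46, -0.74 and -1.48, with a mean of -0.89 (1.86-fold lower in GFP+ cells, standard error 0.22), and the gene did not pass (adjusted p = 0.129). Without day 13 the difference was -0.60. Its mean signal was below the median of all probe sets, and it was the only member of the 15 so dim that reached an unadjusted p under 0.05. Of 5 astrocyte markers none passed the test and 2 (Aldh1l1 and Aqp4) were lower at an unadjusted p under 0.05 from limma. The mean list signal was 5.30 to 5.55 in GFP+ and 5.59 to 6.05 in GFP- cells, and this gap drew mostly on Aldh1l1. Its mean difference was -1.94, against -0.41 for Aqp4, -0.09 for S100b, 0.04 for Slc1a2 and 0.06 for Gfap. Aldh1l1 had 5.09, 5.57 and 5.10 in GFP+ cells and 6.02, 7.81 and 7.76 in GFP- cells (adjusted p = 0.062), while Gfap stayed between 4.88 and 5.09 on all arrays. The part of glial cells in the Kcnj10 difference was not tested. Kcnj3, Kcnj6 and Kcnj9, which encode G protein-gated (GIRK) subunits, had mean signals under the median of all probe sets and daily differences from -0.48 to 0.23.

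The classical Kv genes of the Kv1, Kv2 and Kv3 subfamilies all overlapped between the fractions, and 0 of these 10 genes reached an unadjusted p under 0.05 from limma. Their mean differences ran from -0.28 to 0.35 and their daily differences from -0.88 to 0.84, so the lack of a call does not show equal levels. Kv1 channels sit in axons and set the threshold of firing, Kv2 channels form the delayed rectifier of the cell body, and Kv3 channels allow fast firing. Kcna3 had signals of 7.42, 7.06 and 7.15 in GFP+ cells and of 6.58, 6.81 and 7.18 in GFP- cells. Its difference was 0.84 on day 11 and -0.03 on day 13, with a mean of 0.35 (standard error 0.20, adjusted p = 0.49) that was 0.54 without day 13. The arrays of the fractions overlapped on account of the day 13 GFP- value. Kcnc1, a Kv3 gene known from fast-spiking interneurons, had 5.74, 6.04 and 5.83 in GFP+ cells and 5.21, 5.56 and 5.81 in GFP- cells, with a mean difference of 0.34 (standard error 0.16, adjusted p = 0.411). The daily differences were 0.53, 0.48 and 0.02, and their mean was 0.50 without day 13.

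For Kcna1 the day 13 GFP- value was 6.40, whereas the other 5 arrays were between 5.36 and 5.57. Its mean difference of -0.28 was 0.02 without day 13. Kcna4, which encodes a Kv1 pore with a transient current, had a difference of 0.60 on day 12 and of -0.62 on day 13, and its mean of 0.01 was 0.33 without day 13. The probe sets of Kcna2 had daily differences of 0.17, -0.34 and 0.03 for the brighter and of 0.33, 0.11 and 0.34 for the dimmer, so they did not share a sign on day 12. Kcna5, Kcna6, Kcnc2 and Kcnc4 stayed within daily differences of -0.29 to 0.19, and Kcnb2, the Kv2 member, had differences of -0.09, 0.58 and 0.18. Kcnab1 and Kcnab2, whose products are cytoplasmic beta subunits of Kv1 channels, had daily differences from -0.17 to 0.42.

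Over the days, the number of members over 2-fold higher in GFP+ cells was 1 on day 11 (Kcnip1), 5 on day 12 (Kcnd2, Kcnh7, Kcnk9, Kcnma1 and Kcnip1) and 3 on day 13 (Kcnh7, Kcnk9 and Hcn4). The shares of all genes were 1.85%, 1.48% and 9.18%. The number over 2-fold lower was 0, 0 and 1 (Kcnj10 on day 13), beside 1.3%, 2.43% and 2.29%. On day 13 the count of members was thus in the range of that of all genes, and on day 12 it was above it. A change of the difference from day to day was tested as a slope: 0 members passed, beside 0.0351% of all genes, with a lowest adjusted p of 0.971. Only Kcnh7 reached an unadjusted p under 0.05 from limma, beside 5.11% of all genes. This fit left 1 residual degree of freedom and gave every member the same standard error (0.27). Its p thus reflects the size of the slope and cannot tell how steady the change of a gene was. Among the GFP- arrays day 13 was the highest for 24 of 40 members, beside 43% of all genes, as for 37 of 51 other potassium and HCN channel genes. The part of that array in the day 13 differences was not tested.

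Further genes of potassium transport were counted from lists. Of 57 other potassium and HCN channel genes, 51 were analysed here; 1 was higher past the test, 0 were lower, and 3 were higher at an unadjusted p under 0.05. The gene past the test was Kcnh8, which encodes a channel of the ELK type in the same family as Kcnh7. Its signals were 6.82, 6.82 and 6.60 in GFP+ cells and 5.61, 5.78 and 4.77 in GFP- cells, with no overlap. The mean difference was 1.36 (2.56-fold, standard error 0.19, adjusted p = 0.045), with daily values of 1.21, 1.04 and 1.82. This call was close to the threshold and was lost with no replicate block for the day (adjusted p = 0.093) and after a further quantile normalization (0.097). It was also lost without day 13 (0.061), with arrays centred on their medians (0.144) and with the methods' t-test after Benjamini-Hochberg adjustment (0.414). In these last settings 0 of all 19938 genes were called, so the losses there say nothing of Kcnh8.

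Of 13 genes for proteins that bind or place these channels, 0 passed the test and 4 were higher at an unadjusted p under 0.05 from limma. Cntnap2, which clusters Kv1 channels beside the nodes of axons, had a difference of 0.83 (adjusted p = 0.088). Ank3, whose product ankyrin-G anchors Kv7 channels at the axon initial segment, had daily differences of -0.12, 1.20 and 1.74 with fractions that overlapped. Its mean was 0.94 (adjusted p = 0.281) and was 0.54 without day 13. Dpp10, an auxiliary subunit of Kv4 channels, had daily differences of 1.51, 0.53 and 0.38, with a mean of 0.81 (adjusted p = 0.196) that was 0.46 without day 11. Lrrc55, an auxiliary subunit of BK channels, had a difference of 0.44 (adjusted p = 0.275). Of 12 genes of the Na,K-ATPase, the pump that builds the potassium gradient, 9 were analysed here, and 0 passed the test. At an unadjusted p under 0.05 from limma 2 were higher. Fxyd6 had daily differences of 1.29, 0.38 and 1.52, with a mean of 1.06 (adjusted p = 0.110). Atp1b1 had 0.31, 0.48 and 1.81, with a mean of 0.87 (adjusted p = 0.261) that was 0.39 without day 13.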

How the data were processed

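Sorted GFP+ and GFP- cells of day 11, day 12 and day 13 gave RNA for 6 arrays, 1 per fraction and day (GeneChip Mouse Gene 1.0 ST). The authors calculated the probe set signals with RMA16 in GeneSpring, and the deposited values are log2 signals. Joint normalization of the arrays and filters are not described in the sources used here. Of 28853 probe sets, 21789 had 1 gene symbol in the platform annotation, 1621 had several and 5443 had none. The brightest single-symbol probe set stood for each of 19938 genes, with no filter on dim ones. The log2 values of all genes were fitted on fraction plus day, both as factors, with lmFit and eBayes (limma 3.58.1, R 4.3.3; 2 residual degrees of freedom), Benjamini-Hochberg adjustment and a threshold of 0.05, and a slope per day was fitted to the daily differences. The labels tie the fractions by day, and the GFP+ and GFP- arrays of a day deviated together from the means of their fractions (correlation over genes 0.112 on day 11, 0.558 on day 12 and 0.368 on day 13). Fits were tested on simulated data. Values in every array were to be given for members past the test, over 2-fold on average or with a daily difference over 1.5 in size, and are given for further members too, among them all whose fractions did not overlap. The members and the lists were chosen with earlier results of these data known. Alternatives were the fit with no replicate block, each day left out, 2 scalings, the mean of probe sets, 2 filters, a trended and robust eBayes, and the methods' t-test (Student's). The counts at an unadjusted p under 0.05, and of fractions that did not overlap, were recomputed as alternatives chosen after seeing the data. The number of arrays limits the precision.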

Additional observations from a re-analysis of the deposited data

How the results depend on the processing

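The count of channel members past the test was 0 higher and 0 lower. It was also 0 with no replicate block for the day, after a further quantile normalization and with probe sets averaged per gene. With arrays centred on their medians, without day 13, and with the methods' t-test after Benjamini-Hochberg adjustment, 0 of all 19938 genes were called, so the 0 there says nothing of the members or of any other gene. Leaving out each day in turn gave 0 to 3 higher (Kcnh7, Kcnip1 and Kcnk9 without day 11, Kcnip1 and Kcnk9 without day 12) and 0 to 1 lower (Kcnj10 without day 11). The count of higher members was 1 with no replicate block and without the day 13 GFP- array (Kcnd2), 1 with genes over the 20th percentile (Kcnip1), 3 with genes over the median (Kcnd2, Kcnip1 and Kcnk9), and 4 with a trended and robust eBayes (Kcnd2, Kcnh7, Kcnip1 and Kcnk9), which also called 1 lower (Kcnj10). The methods' t-test at its unadjusted threshold called 4 higher (Hcn3, Kcnd2, Kcnip1 and Kcnq3) and 2 lower (Kcnh1 and Kcnn3). These settings also changed the share of all genes called in either direction: 1.36% in the reported fit, 5.31% with the trended eBayes, 9.64% with genes over the median and 5.81% without day 12. It was 2.77% without day 11, 3.66% with genes over the 20th percentile and 1.58% with no replicate block and without the day 13 GFP- array. The unadjusted t-test called 8.81% of all genes. Over 2-fold higher were 1 to 3 members and over 2-fold lower 0 to 1 with a day left out. Without day 13, 18 members were higher with fractions that did not overlap, against 10. The 1 gene of the other lists past the test (Kcnh8) became 0 with no replicate block, median centring, quantile normalization and the adjusted t-test, 0 to 4 with a day left out, 3 with genes over the median, 5 with the trended eBayes and 6 with the unadjusted t-test. The median difference of the members stayed between -0.01 and 0.10. Over 231 values of single genes under an alternative, 200 kept direction and side of the threshold, 22 passed it, 9 lost it and 0 reversed. These genes were Kcnh8, Bcl11b and the 16 members with a mean difference over 0.3 in size or with no overlap, a choice that itself makes reversals unlikely. All 9 losses were of Kcnh8 and Bcl11b, since no member had a call to lose, and some fell in the settings that called 0 of all genes. Of the 24 members with small differences, 18 changed sign under at least 1 alternative. The causes were not tested. Signals near the floor of the array limit the 15 dim members.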
